A study of Mus musculus with 24 samples.

Results

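Prostaglandins are made, sensed and removed by a small set of proteins, and 9 genes of that set were followed here across the mouse renal cortex. They are the cyclooxygenase genes Ptgs1 and Ptgs2, the terminal synthase genes Ptgds and Ptges, the prostaglandin E2 receptor genes Ptger1, Ptger3 and Ptger4, the uptake carrier gene Slco2a1 and the breakdown gene Hpgd. They were chosen by gene symbol, with earlier results of these data known, and all 9 were found among the 48526 genes of the count table. Of these, 8 passed the filter on low counts, and Ptgs2 did not.

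The study sequenced bulk RNA of the renal cortex of C57BL/6 mice in 24 libraries, 6 in each of 4 groups. The diabetic groups received 55 mg/kg streptozotocin, a toxin of the insulin-producing beta cells, in 5 daily intraperitoneal injections at 6 weeks of age, and the non-diabetic groups received its sodium citrate buffer. Within each kind, mice were randomized to PMX-53, a peptide inhibitor of the complement receptor C5aR1, at 2 mg/kg in drinking water, or to water alone (vehicle), for 24 weeks. The study asked how diabetes and the inhibitor change kidney gene expression. The 4 groups are thus non-diabetic vehicle, diabetic vehicle, non-diabetic PMX-53 and diabetic PMX-53, and none of the labels gives the sex of the mice. In bulk RNA, fewer cells of a type and less RNA per cell cannot be told apart. The labels number the libraries of a group without saying that each is a separate mouse, so p-values describe the spread between samples, which may be technical in part.

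In background terms, phospholipases free arachidonate from membranes, cyclooxygenases turn it into prostaglandin H2, and terminal synthases turn that into single prostaglandins that act on G protein-coupled receptors near the cell that made them. The carrier encoded by Slco2a1 returns extracellular prostaglandins to the cytoplasm, where the dehydrogenase encoded by Hpgd inactivates them. In the kidney, prostaglandin E2 is known for opposing salt uptake in the thick ascending limb and water uptake in the collecting duct. It is also known for dilating vessels and for driving renin release.

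The stretches before the start sites of 4 genes are shown, because the results turn on these genes, which changed in at least 2 of the group comparisons by values that do not hang on a single library. RefSeq (GRCm38.p6) had a start for 8 of the 9 genes. The windows of 250 bases end at the last base before the RefSeq start. They lie at chr2:25469750-25469999 on the minus strand for Ptgds, chr2:30903298-30903547 on the minus strand for Ptges, chr3:157566626-157566875 on the plus strand for Ptger3 and chr9:103008237-103008486 on the plus strand for Slco2a1. The windows of Ptgds, Ptges and Slco2a1 lie inside the GENCODE M21 spans of these genes, which start further upstream. Capitals mark matches to the motifs named after the sequences.

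Ptgds: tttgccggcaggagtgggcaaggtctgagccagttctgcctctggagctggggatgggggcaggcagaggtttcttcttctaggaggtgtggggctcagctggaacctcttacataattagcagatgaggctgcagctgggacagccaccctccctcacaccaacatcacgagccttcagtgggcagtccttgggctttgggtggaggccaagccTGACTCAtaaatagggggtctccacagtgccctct

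Ptges: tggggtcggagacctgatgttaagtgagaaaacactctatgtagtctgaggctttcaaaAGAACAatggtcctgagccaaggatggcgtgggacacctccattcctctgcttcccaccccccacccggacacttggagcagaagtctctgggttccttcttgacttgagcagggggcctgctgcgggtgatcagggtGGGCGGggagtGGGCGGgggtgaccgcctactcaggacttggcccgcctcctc

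Ptger3: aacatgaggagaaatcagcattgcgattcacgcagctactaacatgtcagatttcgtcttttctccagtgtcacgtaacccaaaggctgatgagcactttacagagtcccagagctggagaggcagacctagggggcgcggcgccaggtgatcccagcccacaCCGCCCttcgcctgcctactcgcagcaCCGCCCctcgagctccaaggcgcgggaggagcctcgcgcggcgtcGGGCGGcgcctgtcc

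Slco2a1: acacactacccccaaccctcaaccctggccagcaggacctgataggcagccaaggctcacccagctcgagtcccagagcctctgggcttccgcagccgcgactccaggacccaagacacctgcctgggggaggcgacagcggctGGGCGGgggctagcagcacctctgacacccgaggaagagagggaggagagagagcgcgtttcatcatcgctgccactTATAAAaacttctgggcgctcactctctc

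The letters searched on both strands were the TATA box TATAAA, the box named for its letters CCAAT, the GC box written GGGCGG, the AP-1 site spelled TGANTCA, the cAMP response element TGACGTCA, the E-box form CACGTG, the steroid receptor element AGAACA and the C/EBP site spelled TTGCNNAA. The Ptgds window held 1 AP-1 match, 35 bases before the start, and 6.75% of all 32841 RefSeq promoters of the same length hold one. The Ptges window held GC boxes at 53 and 42 bases and AGAACA at 191 bases, letters found in 32.7% and 16.1% of promoters. In Ptger3 there were 3 GC boxes, at 87 and 60 bases on the reverse strand and at 15 bases on the forward strand. Slco2a1 held a TATA box at 29 bases, found in 12.4% of promoters, and a GC box at 106 bases. The capitals in these 4 windows do not overlap one another, and a match is a description of letters only. The GC box was held by 3 of the windows and not by that of Ptgds.

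Before the genes themselves, some libraries stood apart. Libraries held 10964992 to 22000895 counts. All 6 diabetic vehicle libraries differed from the other 18 in Nnt, at 242 to 272 CPM (counts scaled by the size and scaling factor of the library) against 101 to 121, and in Ide, at 62.2 to 76.5 CPM against 111 to 169. Mitochondrially encoded genes took 25.9% to 31.9% of their counts, and 20.1% to 29.0% in the other 18. What sets this group apart cannot be told apart from diabetes on vehicle. The same holds for PMX-53 in diabetic mice and for the interaction of diabetes and PMX-53, which also use these libraries. The comparisons of PMX-53 in non-diabetic mice and of diabetes on PMX-53 do not compare this group. Their filter, scaling and estimate of the spread still come from a fit of all 24 libraries, this group among them. With only the groups compared in the fit, diabetes on PMX-53 called 2009 of 15192 genes, against 1587 of 15808. Summed urothelium markers passed 5 CPM in 3 libraries, non-diabetic PMX-53 replicate 6 and diabetic vehicle replicates 1 and 2, and were 0.547 to 2.53 CPM in the others. The proximal tubule markers, which check the tissue, summed to 10329 to 12474 CPM in diabetic vehicle libraries, below all non-diabetic vehicle libraries at 13609 to 15989. They summed to 14199 to 17121 in non-diabetic PMX-53 and 11367 to 15418 in diabetic PMX-53 libraries. With diabetes on vehicle 3 of these 8 markers fell and 2 rose, where 40.3% of all tested genes passed, and their part in the results of the prostaglandin genes was not tested. None of the lists of cell markers had a member at 0 in all libraries.

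With diabetes on vehicle, 7 of the 8 tested prostaglandin genes passed an adjusted p of 0.05, where 40.3% of all 15808 tested genes did. Ptgs1, Ptgds, Ptges, Ptger1, Ptger3 and Slco2a1 were higher and Hpgd was lower, against 20.4% of all genes called higher and 19.9% called lower. The median log2 fold change of the 8 was 0.63, beside -0.00 over all tested genes. With PMX-53 in diabetic mice, 5 of 8 passed, where 27.3% of all genes did. Ptgds, Ptger1, Ptger3 and Slco2a1 were lower and Ptges was higher, against 13.5% of all genes called lower and 13.9% called higher, and the median was -0.27. These 2 comparisons share the diabetic vehicle libraries, which stand apart in Nnt and Ide, so their opposite signs are not separate evidence. The genes were chosen with earlier results of these data known, so these counts describe them and do not test the set.

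PMX-53 in non-diabetic mice called 0 of the 8 genes by edgeR, where 0% of all genes passed. At an unadjusted p under 0.05 there were 2 of the 8, Ptgs1 and Ptges, and 7.22% of all genes, while DESeq2 called 4 genes of the whole table and limma voom 0. Diabetes on PMX-53 called Ptges and Slco2a1 higher, 2 of 8, where 10% of all genes passed, 5.52% higher and 4.52% lower. The interaction sets the response to PMX-53 of diabetic mice against that of non-diabetic mice, as the former minus the latter. It passed for 2 of 8, Ptgds and Ptger3, both negative, where 9.42% of all genes passed, 4.66% positive and 4.76% negative. Leaving out the 3 libraries with urothelium markers gave 6, 4, 0, 3 and 1 genes in the 5 comparisons, in the order given here. Of all 16050 genes tested in that fit, 5015, 2779, 0, 1664 and 610 passed.

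**Figure D1:**
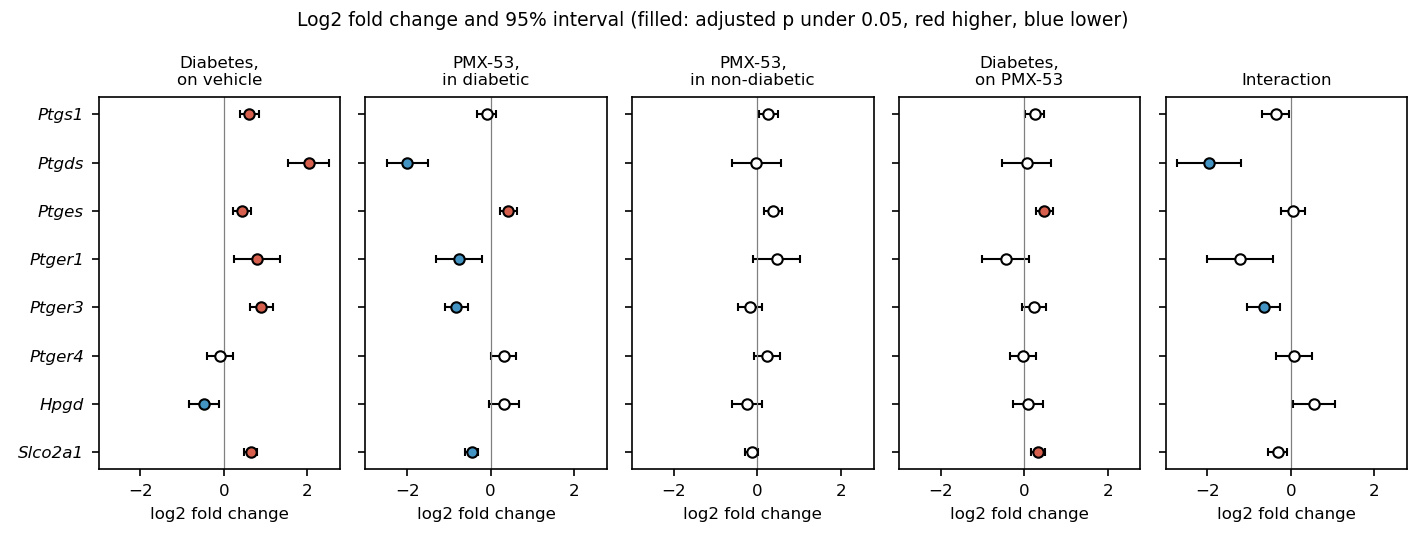
Log2 fold change (x axis) of the 8 tested genes (rows) in the 5 comparisons, with the 95% interval from the edgeR fit; filled points passed an adjusted p of 0.05, red for higher and blue for lower. Ptgds had the widest shifts, 2.03 with diabetes on vehicle and -1.99 with PMX-53 in diabetic mice, and none of the points is filled for PMX-53 in non-diabetic mice.

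Ptgs1 (ENSMUSG00000047250, chromosome 2, 36230426 to 36252272, GRCm38) encodes cyclooxygenase-1, the form made without an inducing signal in many cells, the collecting duct among them. It was at 10.9 to 18.2 CPM in non-diabetic vehicle libraries, with a median of 14.1 (mean 14.1 ± 2.60, SD, n = 6). In diabetic vehicle libraries it was at 18.2 to 26.1, with a median of 20.6 (21.5 ± 3.49). All 6 diabetic libraries lay above the non-diabetic mean, and the groups met only at their edge. The difference was 1.53-fold, a log2 fold change of 0.61 ± 0.12 (SE, edgeR adjusted p = 0.000192). Without the 3 libraries with urothelium markers it was 0.47 (adjusted p = 0.00124).

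On PMX-53, Ptgs1 was at 14.1 to 22.3 CPM in non-diabetic libraries, with a median of 16.4 (16.9 ± 3.08), and the highest value was replicate 6. Diabetic PMX-53 libraries ran from 18.7 to 21.2 with a median of 20.7 (20.2 ± 1.13), within the range of the diabetic vehicle group. PMX-53 gave log2 -0.10 ± 0.11 in diabetic mice (adjusted p = 0.573) and 0.26 ± 0.12 in non-diabetic mice (adjusted p = 0.668). Diabetes on PMX-53 gave 0.25 ± 0.12 (adjusted p = 0.18), and 0.35 without non-diabetic PMX-53 replicate 6, which passed the threshold (adjusted p = 0.0461). The 8 collecting duct principal cell markers rose along with the gene with diabetes on vehicle, and parted from it in other comparisons. Their sum was 151 to 206 CPM in non-diabetic vehicle, 264 to 428 in diabetic vehicle, 202 to 321 in non-diabetic PMX-53 and 253 to 343 in diabetic PMX-53 libraries. All 8 markers rose with diabetes on vehicle, where 20.4% of all tested genes did. With diabetes on PMX-53, where Ptgs1 did not pass, 3 of 8 rose, beside 5.52% of all genes. With PMX-53 in diabetic mice, where Ptgs1 also did not pass, 2 of 8 fell, beside 13.5% of all genes. Their part in the Ptgs1 result was not tested.

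Ptgs2 (ENSMUSG00000032487, chromosome 1, 150100031 to 150108227) encodes cyclooxygenase-2, the inducible form, which in the cortex is known from the macula densa and nearby thick ascending limb. It was scarce, with 0 to 9 counts per library. The 6 libraries of a group together held 12 counts in non-diabetic vehicle, 30 in diabetic vehicle, 21 in non-diabetic PMX-53 and 13 in diabetic PMX-53. In 3 libraries it was at 0, which at 3 counts allows up to 0.248 CPM in the shallowest of them. The highest value, 0.526 CPM, was non-diabetic PMX-53 replicate 6, and the groups overlapped. In a fit without the filter, diabetes on vehicle gave a log2 fold change of 1.03 ± 0.57 (edgeR adjusted p = 0.224) and PMX-53 in diabetic mice gave -0.96 ± 0.56 (adjusted p = 0.313). A difference was not detectable at this depth. The 3 macula densa markers summed to 2.96 to 4.12 CPM in non-diabetic vehicle and 6.28 to 10.4 in diabetic vehicle libraries. Nos1 and Bmp3 were higher and Pappa2 was lower, where 20.4% of all tested genes were higher and 19.9% lower. The sum was 3.62 to 5.96 in non-diabetic PMX-53 and 3.59 to 5.45 in diabetic PMX-53 libraries.

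Ptgds (ENSMUSG00000015090, chromosome 2, 25466709 to 25470046, minus strand) encodes the lipocalin-type prostaglandin D synthase, a secreted protein that is also filtered from plasma and taken up by the proximal tubule. Its RNA was low in 3 groups and high in the diabetic vehicle group. Non-diabetic vehicle libraries ran from 0.441 to 1.16 CPM with a median of 0.692 (0.737 ± 0.235, 6 to 16 counts each). Diabetic vehicle libraries ran from 1.52 to 4.76 with a median of 3.23 (3.04 ± 1.10, 24 to 73 counts). The groups did not overlap. The rise was 4.08-fold, log2 2.03 ± 0.25 (edgeR adjusted p = 4.45e-07), and replicates 1 and 3 of the diabetic vehicle group were its highest and lowest.

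With PMX-53 the diabetic libraries held 0.558 to 1.17 CPM of Ptgds, with a median of 0.690 (0.751 ± 0.216, 8 to 19 counts). None of the 6 reached the lowest diabetic vehicle library, and the log2 fold change was -1.99 ± 0.25 (adjusted p = 2.39e-06). Non-diabetic PMX-53 libraries were at 0.516 to 1.05, with a median of 0.640 (0.717 ± 0.232), which overlapped both of the other low groups. PMX-53 in non-diabetic mice gave -0.03 ± 0.30 (adjusted p = 0.998) and diabetes on PMX-53 gave 0.06 ± 0.30 (adjusted p = 0.925). The interval of the latter, -0.52 to 0.65, does not reach the 2.03 seen on vehicle. The interaction was -1.96 ± 0.39 (adjusted p = 0.0025). Without the 3 libraries with urothelium markers the 2 comparisons with diabetic vehicle gave 1.78 and -1.75 and the interaction -1.58 (adjusted p = 7.06e-06, 3.4e-05 and 0.022). The urothelium sum was 1.21 to 6.52 CPM in diabetic vehicle and 0.547 to 0.871 in non-diabetic vehicle libraries, so these groups also do not overlap in it. Whether the remaining urothelium signal bears on Ptgds was not tested.

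Ptges (ENSMUSG00000050737, chromosome 2, 30889471 to 30929863, minus strand) encodes the microsomal prostaglandin E synthase-1, an inducible enzyme that works beside cyclooxygenase-2. It was higher with diabetes, on vehicle and on PMX-53, and with PMX-53 in diabetic mice. Its levels were 7.04 to 12.2 CPM in non-diabetic vehicle libraries, with a median of 10.95 (10.6 ± 1.87). They were 12.7 to 16.5 in diabetic vehicle libraries, with a median of 14.1 (14.3 ± 1.36). The groups did not overlap, and the log2 fold change was 0.43 ± 0.11 (edgeR adjusted p = 0.00192). The lowest library of all, non-diabetic vehicle replicate 6, was also the lowest of its group in principal cell markers. The same library was lowest in intercalated cell, distal convoluted and connecting tubule, and inner medulla and papilla markers. It was lowest too in endothelium, fibroblast and vascular smooth muscle, and macrophage markers, but not in the remaining lists.

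In non-diabetic PMX-53 libraries Ptges was at 12.0 to 14.97 CPM, with a median of 13.9 (13.7 ± 1.24). The diabetic PMX-53 group was highest, at 15.4 to 23.8 with a median of 19.2 (19.3 ± 2.80). Every diabetic PMX-53 library exceeded every non-diabetic PMX-53 library, and the log2 fold change was 0.49 ± 0.10 (adjusted p = 0.00274). PMX-53 in diabetic mice gave 0.43 ± 0.10 (adjusted p = 0.00255), with 6 of 6 libraries above the diabetic vehicle mean and some overlap. PMX-53 in non-diabetic mice gave 0.37 ± 0.11 with 6 of 6 libraries above the vehicle mean, which did not pass after adjustment (unadjusted p = 0.00172, adjusted p = 0.381). The interaction was 0.06 ± 0.15, with an interval of -0.23 to 0.35 (adjusted p = 0.864). Fibroblast and vascular smooth muscle markers summed to 106 to 162 CPM in diabetic vehicle and 150 to 236 in diabetic PMX-53 libraries, and 6 of the 8 rose with PMX-53 in diabetic mice, where 13.9% of all tested genes did. With diabetes on vehicle, 3 of these 8 fell while Ptges rose, where 19.9% of all genes fell.

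Other marker lists moved with Ptges in some of the comparisons. Distal convoluted and connecting tubule markers summed to 1213 to 1575 CPM in non-diabetic vehicle and 1455 to 1965 in diabetic vehicle libraries. They summed to 1459 to 2048 in non-diabetic PMX-53 and 1774 to 2348 in diabetic PMX-53 libraries, an order of group means like that of Ptges. Intercalated cell markers had the same order, with mean sums of 179 and 243 CPM in the non-diabetic and diabetic vehicle groups. On PMX-53 these means were 215 and 269 CPM. Of the 7 distal convoluted and connecting tubule markers 5 rose with diabetes on vehicle and 5 with diabetes on PMX-53, where 20.4% and 5.52% of all genes did. Podocyte markers summed to 307 to 345 CPM in diabetic vehicle and 406 to 510 in diabetic PMX-53 libraries, without overlap. Of these 8 markers 6 rose with PMX-53 in diabetic mice, where 13.9% of all tested genes did. The podocyte sums of non-diabetic vehicle libraries, 316 to 356, overlapped those of diabetic vehicle libraries. With diabetes on vehicle, where Ptges rose, 0 of the 8 podocyte markers passed, beside 40.3% of all tested genes. The part of these lists, and of the fibroblast and vascular smooth muscle list, in the Ptges results was not tested.

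**Figure D2:**
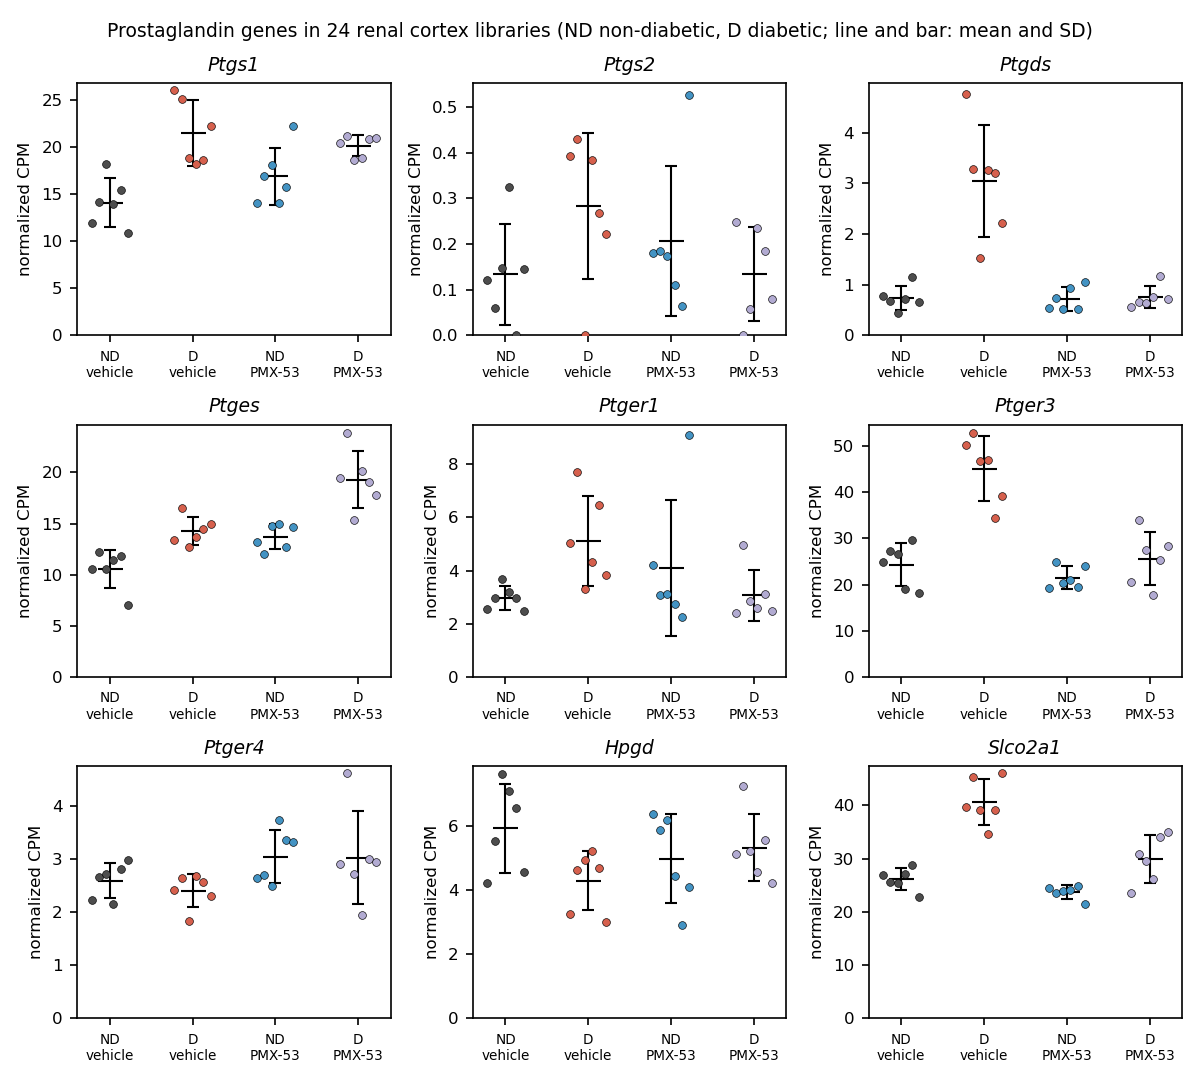
Normalized CPM (y axis) of the 9 genes in the 24 libraries by group, 1 point per library, with the mean and SD of each group of 6. Ptgds, Ptger3 and Slco2a1 stand highest in the diabetic vehicle libraries, Ptges is highest in the diabetic PMX-53 libraries, and a single non-diabetic PMX-53 library at 9.12 CPM sets the spread of Ptger1 in its group.

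Ptger3 (ENSMUSG00000040016, chromosome 3, 157566892 to 157645888) encodes EP3, the prostaglandin E2 receptor that lowers cyclic AMP and is known from the thick ascending limb and collecting duct. Non-diabetic vehicle libraries held 18.1 to 29.7 CPM with a median of 25.7 (24.2 ± 4.68). Diabetic vehicle libraries held 34.3 to 52.9 with a median of 46.9 (45.1 ± 6.998). The groups did not overlap, a 1.86-fold difference, log2 0.89 ± 0.14 (edgeR adjusted p = 2.71e-05). Diabetic PMX-53 libraries held 17.8 to 33.9 with a median of 26.4 (25.6 ± 5.77), all below the lowest diabetic vehicle library. That difference was -0.82 ± 0.14 on the log2 scale (adjusted p = 0.000159).

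Non-diabetic PMX-53 libraries held 19.2 to 25.0 CPM of Ptger3 with a median of 20.7 (21.5 ± 2.46). Neither PMX-53 in non-diabetic mice (-0.17 ± 0.14, adjusted p = 0.869) nor diabetes on PMX-53 (0.24 ± 0.14, adjusted p = 0.315) passed the test. The interaction, -0.65 ± 0.20, passed narrowly (adjusted p = 0.0445). It missed the threshold in 19 of 33 alternatives, and was -0.51 without the 3 libraries with urothelium markers (adjusted p = 0.217). The single libraries whose removal did so were non-diabetic vehicle replicates 1, 3, 4 and 6, diabetic vehicle replicates 1 to 3, non-diabetic PMX-53 replicates 2 to 6 and diabetic PMX-53 replicates 1, 3, 4 and 5.

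The thick ascending limb list did not move with Ptger3 as a whole. Its 7 markers summed to 3280 to 4332 CPM in non-diabetic vehicle and 2637 to 4151 in diabetic vehicle libraries. With diabetes on vehicle 3 were higher and 2 lower, where 20.4% of all tested genes were higher and 19.9% lower. With PMX-53 in diabetic mice 0 were higher, 2 were lower and 5 did not pass, where 13.5% of all genes were lower. Of these markers Slc12a1, the loop diuretic-sensitive cotransporter, rose by 0.45 ± 0.18 with diabetes on vehicle (adjusted p = 0.0477). The inhibitor in diabetic mice changed it by -0.77 ± 0.18 (adjusted p = 0.00241). Slc12a1 was also the gene whose deviations from the group means were most like those of Ptger3 over the 24 libraries, with r = 0.827, which is a description without a test. It was picked from the list after its values were seen, and the part of the list in the Ptger3 result was not tested.

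Ptger1 (ENSMUSG00000019464, chromosome 8, 83666678 to 83672753) encodes EP1, the receptor that raises intracellular calcium and is known from the collecting duct. Its value is uncertain, because the strand setting of the counting is not given in the sources used here and reads from overlapping transcription cannot be told apart from its own. It was at 2.47 to 3.68 CPM in non-diabetic vehicle libraries, with a median of 2.97 (2.97 ± 0.444). In diabetic vehicle libraries it was at 3.30 to 7.70, with a median of 4.68 (5.11 ± 1.68), and the groups overlapped. The log2 fold change was 0.79 ± 0.28 (edgeR adjusted p = 0.0283), which missed the threshold in 6 of 22 alternatives. Leaving out non-diabetic vehicle replicate 1 or 6 or diabetic vehicle replicate 2 or 5 each did so, with adjusted p up to 0.0802.

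Diabetic PMX-53 libraries held 2.42 to 4.95 CPM of Ptger1 with a median of 2.71 (3.07 ± 0.960), a log2 fold change of -0.75 ± 0.28 (adjusted p = 0.048). This call was lost in 12 of 22 alternatives, with adjusted p up to 0.128, among them a fit with the replicate number as a block (-0.73, adjusted p = 0.0692). The single libraries whose removal lost it were diabetic vehicle replicates 1, 2 and 5 and diabetic PMX-53 replicates 1, 3, 4, 5 and 6. Non-diabetic PMX-53 libraries held 2.26 to 9.12 with a median of 3.10 (4.09 ± 2.55). The value of 9.12 was replicate 6, where principal cell markers were also highest, and the other 5 were at 2.26 to 4.22. The interaction was -1.22 ± 0.40 (adjusted p = 0.0568), and -0.63 without the 3 libraries with urothelium markers (adjusted p = 0.233). It passed with DESeq2 (-1.21, adjusted p = 0.0222), and without any 1 of diabetic vehicle replicates 3 or 4, non-diabetic PMX-53 replicates 4 or 5 or diabetic PMX-53 replicate 2 (adjusted p of 0.0353 to 0.0488). The deviations of Ptger1 were most like those of Fxyd4, a principal cell marker, with r = 0.862 over 24 libraries.

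Ptger4 (ENSMUSG00000039942, chromosome 15, 5206661 to 5244187, minus strand) encodes EP4, a receptor that raises cyclic AMP and dilates vessels. It passed the threshold in none of the 5 comparisons, which does not exclude a change. Levels were 2.15 to 2.98 CPM in non-diabetic vehicle (median 2.697, 2.59 ± 0.331) and 1.84 to 2.68 in diabetic vehicle libraries (median 2.49, 2.41 ± 0.311). They were 2.49 to 3.74 in non-diabetic PMX-53 (median 3.02, 3.05 ± 0.499) and 1.94 to 4.62 in diabetic PMX-53 libraries (median 2.93, 3.03 ± 0.875). All 4 groups overlapped. Diabetes on vehicle gave log2 -0.10 ± 0.16 with an interval of -0.42 to 0.21 (edgeR adjusted p = 0.646), which does not reach the 0.89 of Ptger3. PMX-53 in diabetic mice gave 0.31 ± 0.16 (adjusted p = 0.149), and 0.41 without diabetic PMX-53 replicate 4, which passed the threshold (adjusted p = 0.0445). Of its exon bases 15.3% overlap a pseudogene on the opposite strand.

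Slco2a1 (ENSMUSG00000032548, chromosome 9, 102988712 to 103096002) encodes the prostaglandin transporter, which clears prostaglandins from the extracellular space. It was at 22.8 to 28.7 CPM in non-diabetic vehicle libraries, with a median of 26.3 (26.1 ± 2.02). Diabetic vehicle libraries were at 34.6 to 46.2, with a median of 39.5 (40.7 ± 4.35), and the groups did not overlap. The rise was 1.56-fold, log2 0.64 ± 0.08 (edgeR adjusted p = 7.33e-07). Diabetic PMX-53 libraries were at 23.5 to 35.1, with a median of 30.2 (29.9 ± 4.50), between both vehicle groups and overlapping each. PMX-53 in diabetic mice gave -0.45 ± 0.08 (adjusted p = 0.000181).

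In non-diabetic PMX-53 libraries Slco2a1 was at 21.4 to 24.9 CPM, with a median of 24.0 (23.7 ± 1.24). All 6 lay below the non-diabetic vehicle mean, but the difference, -0.14 ± 0.08, did not pass (adjusted p = 0.785). Diabetes on PMX-53 gave 0.33 ± 0.08 (adjusted p = 0.0111), with 5 of 6 diabetic libraries above the non-diabetic mean. The interaction was -0.31 ± 0.12 (adjusted p = 0.0924), and it passed with limma voom (-0.35, adjusted p = 0.0339). It also passed without diabetic vehicle replicate 4 or diabetic PMX-53 replicate 6 (adjusted p = 0.0361 and 0.0458). Without the 3 libraries with urothelium markers the 3 calls held, at 0.61, -0.42 and 0.30 (adjusted p = 1.63e-05, 0.00202 and 0.0277).

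Hpgd (ENSMUSG00000031613, chromosome 8, 56294585 to 56321043) encodes the dehydrogenase that oxidizes prostaglandins to inactive keto forms. Non-diabetic vehicle libraries held 4.23 to 7.65 CPM with a median of 6.05 (5.94 ± 1.39). Diabetic vehicle libraries held 3.02 to 5.23 with a median of 4.67 (4.30 ± 0.926). All 6 diabetic libraries lay below the non-diabetic mean, but the groups overlapped. The log2 fold change was -0.47 ± 0.18 (edgeR adjusted p = 0.0435), and the call was lost in 9 of 22 alternatives. Single libraries whose removal lost it were non-diabetic vehicle replicates 2, 3, 4 and 5 and diabetic vehicle replicates 1, 2 and 6, with adjusted p up to 0.115. Without the 3 libraries with urothelium markers it was -0.42 (adjusted p = 0.131).

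Hpgd on PMX-53 was at 2.90 to 6.39 CPM in non-diabetic libraries (median 5.17, 4.99 ± 1.39) and 4.23 to 7.26 in diabetic libraries (median 5.18, 5.34 ± 1.06). These groups overlapped each other and both vehicle groups. None of the other 4 comparisons passed for Hpgd. PMX-53 in diabetic mice gave 0.31 ± 0.19 (adjusted p = 0.221) and the interaction 0.56 ± 0.26 (adjusted p = 0.185).

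**Figure D3:**
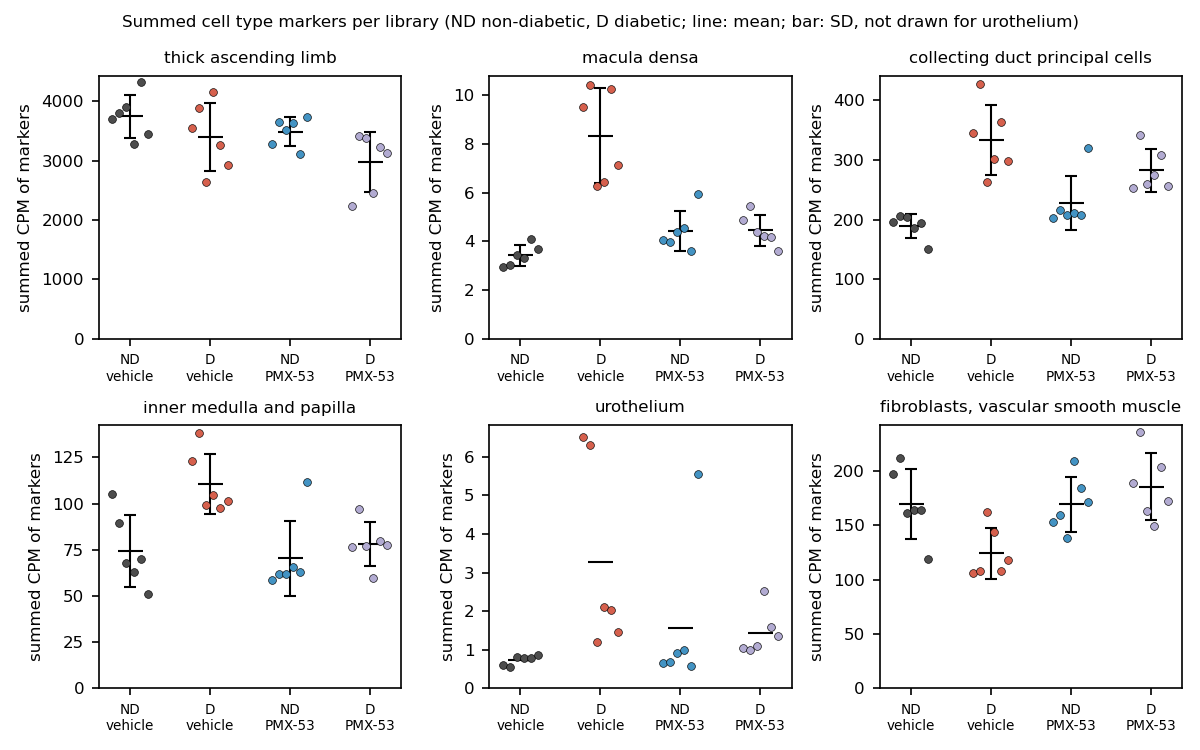
Summed CPM of cell type markers (y axis) by group, 1 point per library, for 6 of the lists, with the group mean as a line and the SD as a bar except for urothelium. Mean principal cell, macula densa and inner medulla sums are highest in diabetic vehicle libraries, although the macula densa marker Pappa2 was lower with diabetes on vehicle. Non-diabetic PMX-53 replicate 6 stands above its group in principal cells (321), inner medulla (111) and urothelium (5.55).

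Inner medulla and papilla markers moved with several of the genes. Their sum was 51.2 to 105 CPM in non-diabetic vehicle, 97.6 to 138 in diabetic vehicle and 59.5 to 96.9 in diabetic PMX-53 libraries. Of the 5 tested, 3 rose with diabetes on vehicle and 2 fell with PMX-53 in diabetic mice, the directions of Ptgds, Ptger1, Ptger3 and Slco2a1, where 20.4% of all tested genes rose and 13.5% fell. Of 8 intercalated cell markers 5 rose with diabetes on vehicle (142 to 201 against 211 to 268 CPM), beside the same 20.4%. The part of these lists in the results of the prostaglandin genes was not tested.

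Levels of different genes can be compared only per kilobase of exon. On that scale Ptger3 led in non-diabetic vehicle libraries, at 4.26 ± 0.822 CPM per kilobase. Ptgs1 followed at 3.64 ± 0.670, Hpgd at 3.53 ± 0.824, Ptges at 2.69 ± 0.475 and Slco2a1 at 1.93 ± 0.149, and neighbours among these 5 overlapped in range. A gap lay between Slco2a1 and Ptger1, at 0.544 ± 0.0814, which overlapped Ptgds at 0.447 ± 0.143 and through it Ptger4 at 0.390 ± 0.0497. Ptgs2 was last at 0.0291 ± 0.0240, apart from the rest.

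The order shifted in the other groups. In diabetic vehicle libraries Ptger3 (7.93 ± 1.23) and Ptgs1 (5.54 ± 0.900) led and overlapped, and Hpgd stood below Ptges and Slco2a1, at 2.55 ± 0.550 CPM per kilobase. Ptgds reached 1.84 ± 0.668, a level that overlapped Hpgd above it and Ptger1 below it. In diabetic PMX-53 libraries Ptgs1 (5.19 ± 0.292), Ptges (4.90 ± 0.713) and Ptger3 (4.50 ± 1.01) were first and overlapped in turn. Ptgds was at 0.455 ± 0.131 CPM per kilobase there, and Ptgs2 stayed last in every group.

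**Figure D4:**
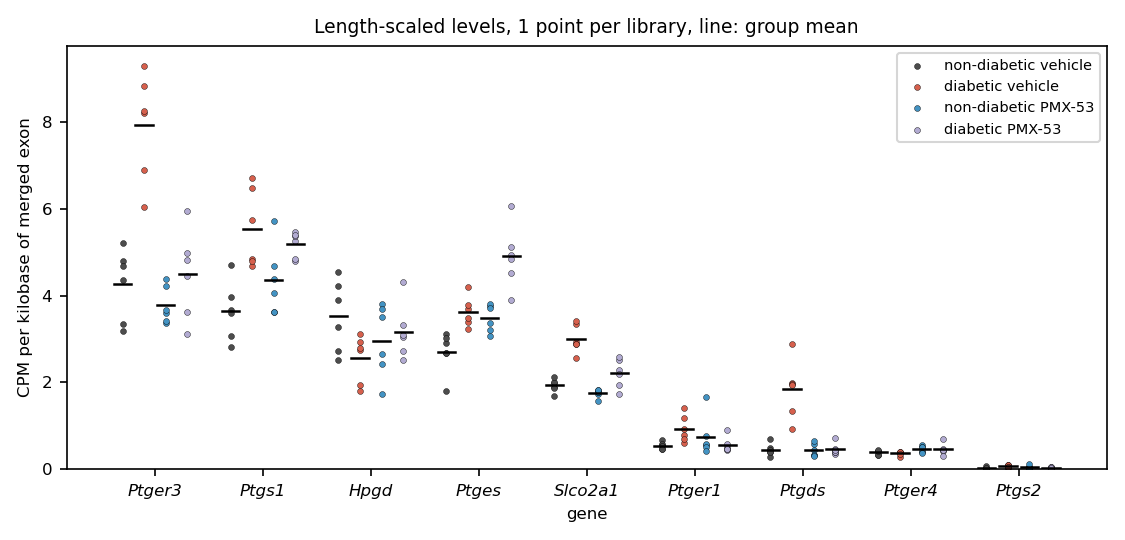
CPM per kilobase of merged exon (y axis) of the 9 genes, ordered by their mean in non-diabetic vehicle libraries, with 1 point per library and a line at each group mean. The first 5 genes stand well above the other 4 in non-diabetic vehicle libraries, and Ptgds rises from 0.447 to 1.84 in diabetic vehicle libraries.

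Other genes of the prostanoid pathway were taken from 4 lists. Of 8 phospholipase genes 7 were tested, and with diabetes on vehicle 3 of them rose and 1 fell, where 20.4% of all tested genes rose and 19.9% fell. Pla2g12a, a secreted phospholipase gene, went from 10.1 ± 1.25 to 16.2 ± 1.40 CPM, log2 0.69 (edgeR adjusted p = 2.56e-07), and fell on PMX-53 in the diabetic mice by 0.23 (adjusted p = 0.0337). Pla2g4a, the cytosolic enzyme that prefers arachidonate, also rose with diabetes on vehicle, by 0.39 (adjusted p = 0.043). Pla2g5 did not pass there, and rose by 0.96 with PMX-53 in diabetic mice, from 3.69 ± 1.01 to 7.21 ± 1.52 CPM (adjusted p = 0.000109).

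Among the 8 other synthase genes, all tested, diabetes on vehicle raised 4 and lowered 2, where 40.3% of all tested genes passed. PMX-53 in diabetic mice raised 1 and lowered 3, where 27.3% passed. Cbr1 encodes a carbonyl reductase that can turn prostaglandin E2 into F2 alpha. It went from 15.9 ± 2.30 CPM in non-diabetic vehicle to 68.5 ± 23.0 in diabetic vehicle libraries, log2 2.11 (adjusted p = 5.22e-07). In diabetic PMX-53 libraries it was at 25.8 ± 8.24, log2 -1.42 (adjusted p = 0.000102). Hpgds, the hematopoietic prostaglandin D synthase gene, moved in the same directions as Ptgds but by less, 0.59 (adjusted p = 0.0243) with diabetes on vehicle and -0.70 (adjusted p = 0.0137) with the inhibitor in diabetic mice. Ptgis, the prostacyclin synthase gene, rose by 0.84 with diabetes on vehicle (adjusted p = 0.00123). Tbxas1, the thromboxane synthase gene, went the other way, at -0.87 (adjusted p = 6.95e-05) with diabetes on vehicle and 0.94 (adjusted p = 6.91e-05) with the inhibitor in diabetic mice.

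Of 6 other prostanoid receptor genes only 3 were tested, since Ptger2, Ptgdr and Ptgdr2 had few counts. Ptgfr, the prostaglandin F receptor gene, went from 31.4 ± 4.69 to 45.6 ± 13.1 CPM with diabetes on vehicle, log2 0.53 (adjusted p = 0.0087). The prostacyclin receptor gene Ptgir fell from 1.87 ± 0.283 to 1.01 ± 0.514, log2 -0.89 (adjusted p = 0.0035), and was at 1.99 ± 0.414 in diabetic PMX-53 libraries, log2 0.97 (adjusted p = 0.00281). Tbxa2r, the thromboxane receptor gene, rose by 0.72 (adjusted p = 0.00304) when diabetic mice received the inhibitor. Ptger2, which encodes EP2, had 7 to 18 counts in the 6 libraries of a group together.

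Of 7 other transport and breakdown genes found, diabetes on vehicle raised 2 and lowered 3, where 40.3% of all tested genes passed. Diabetes on PMX-53 raised 2 and lowered 2, where 10% passed. Abcc4, an exporter of prostaglandins, was higher with diabetes on vehicle (log2 0.64, adjusted p = 0.000106) and on PMX-53 (0.62, adjusted p = 0.00114). Slco3a1, a relative of Slco2a1, was lower in both (-0.92, adjusted p = 1.15e-05, and -0.53, adjusted p = 0.0142). None of the genes of the 4 lists passed for PMX-53 in non-diabetic mice.

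**Figure D5:**
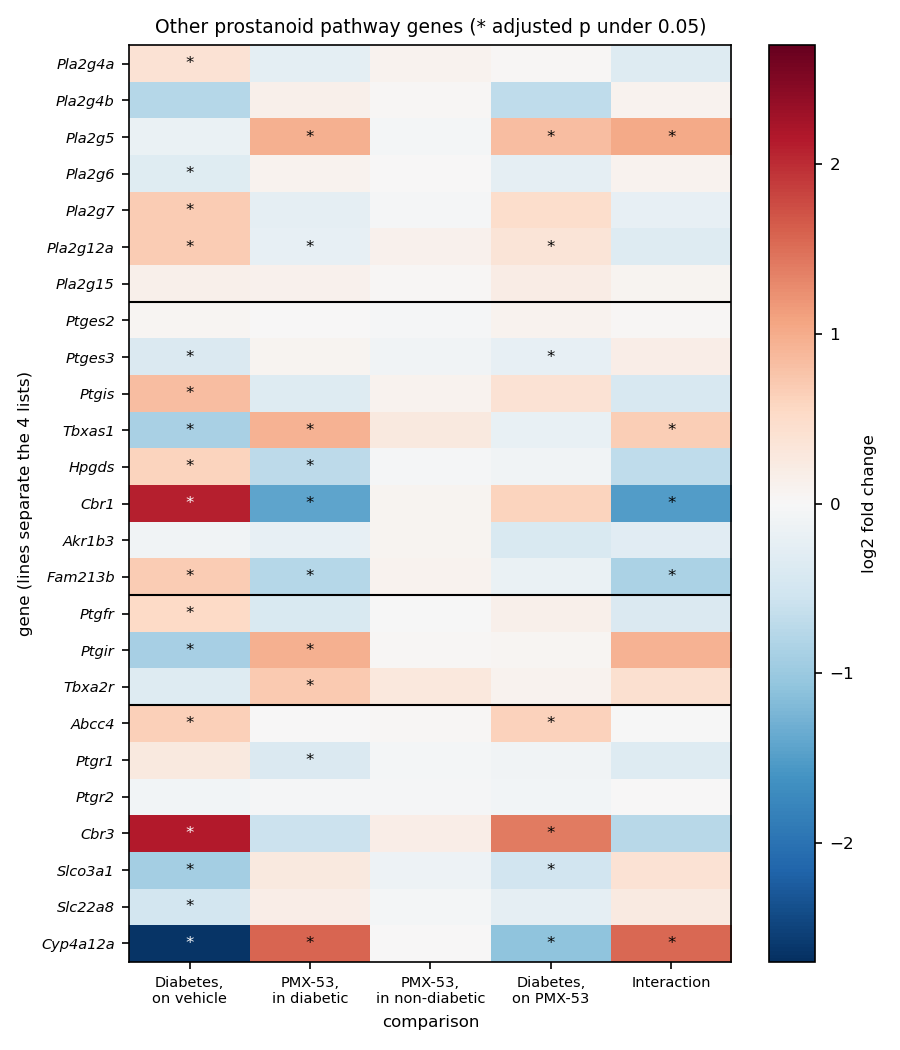
Log2 fold change (colour) of the tested genes of the 4 other prostanoid pathway lists (rows) in the 5 comparisons (columns), with a star where the edgeR adjusted p was under 0.05. Cbr1 shows 2.11 with diabetes on vehicle and -1.42 with PMX-53 in diabetic mice, Tbxas1 and Ptgir show the opposite signs, and the column for PMX-53 in non-diabetic mice has no star.

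The genes whose deviations from the group means were most like each prostaglandin gene over the 24 libraries are given as a description, with no test. The nearest were Plcb4 for Ptgs1 (r = 0.821), Pcmtd1 for Ptgds (0.827), Mycbpap for Ptges (0.716), Lsm14a for Ptger4 (0.727), Kank4 for Hpgd (0.835) and Paqr5 for Slco2a1 (0.745). The points are single libraries that differ in depth, and non-diabetic PMX-53 replicate 6 stands apart in several of the genes.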

How the data were processed

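Counts per gene for 24 libraries were deposited by the authors as whole numbers without normalization, per the file headers. Per the labels' protocols, directional libraries were made from 200 ng of total RNA after ribosomal RNA depletion. Per the submitters' processing notes, bcl2fastq 2.20.0.422 and STAR were used with GRCm38. The version of STAR, the counter, its strandedness and the annotation behind it were not given in the sources used here. All 24 columns were matched to samples by name, and 0 entries named no gene.

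The 9 genes and all gene lists were chosen with earlier results of these data known. In R 4.3.3, edgeR 4.0.16 kept 15808 of 48526 genes with its expression filter (minimum count 10, total 15), scaled libraries by trimmed means of M-values and fitted 1 quasi-likelihood model with a coefficient for each of the 4 groups. All 24 libraries share its estimate of the spread. Tests were two-sided, with Benjamini-Hochberg adjustment over 15808 genes and a threshold of 0.05. The standard error is the log2 fold change divided by the square root of F, and 95% intervals follow from it. Scripts were tested on simulated data. Levels are normalized CPM, per kilobase of merged exon (GENCODE M21) where genes are compared.

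The genes described are the 9, the pathway genes that passed in some comparison (those with the clearest roles were picked from these after their values were seen), and for each gene the 3 with the highest correlation of within-group deviations, of which the first is printed. Nnt, Ide and Slc12a1 were also picked after their values were seen. No 2 libraries of a group were alike within sampling noise (chi-square per degree of freedom of 5.43 or more). Alternatives were another scaling, library totals, other filters, DESeq2 1.42.0, limma 3.58.1 voom, a replicate block, fits on the compared groups, a table without ribosomal RNA and mitochondrially encoded genes, and leaving out each library. Leaving out the 3 libraries with urothelium markers was chosen after seeing the data.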

Additional observations from a re-analysis of the deposited data

Results flagged for a closer look

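Dixon's test at 95% marked 10 of 84 groups of 6 values, where chance marks about 1 in 20. Non-diabetic PMX-53 replicate 6 accounts for 6 of these. It stood above its group in Ptgs2 (0.526 CPM), Ptger1 (9.12 CPM), summed principal cell markers (321 CPM), inner medulla and papilla markers (111 CPM) and urothelium markers (5.55 CPM), and below it in Slco2a1 (21.4 CPM). The other single libraries far from their group were diabetic PMX-53 replicate 5 in Ptgds (1.17 CPM), diabetic PMX-53 replicate 2 in Ptger1 (4.95 CPM) and non-diabetic vehicle replicate 6, which was low in Ptges (7.04 CPM) and in principal cell markers (151 CPM).

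The interaction of diabetes and PMX-53 passed for 2 of the 8 tested prostaglandin genes, where 9.42% of all tested genes passed, with log2 values of -1.96 for Ptgds and -0.65 for Ptger3. That of Ptger3 was lost in 19 of 33 alternatives, with adjusted p up to 0.217. Among the other pathway genes, beside the same 9.42%, it passed for Cbr1 (-1.498, edgeR adjusted p = 0.0072), Fam213b (-0.86, adjusted p = 0.0155), Pla2g5 (1.02, adjusted p = 0.00827), Tbxas1 (0.67, adjusted p = 0.0437) and Cyp4a12a (1.56, adjusted p = 0.0293). Cyp4a12a has close copies in the genome, so its counts are uncertain. All 7 rest on the diabetic vehicle libraries that stand apart in Nnt and Ide.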

How the results depend on the processing

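Over all alternatives 893 values kept their direction and side of the threshold, 46 lost a call, 12 gained one and 17 changed sign, none of the 17 past the threshold. Ptgs1, Ptgds, Ptges, Ptger3 and Slco2a1 kept their calls with diabetes on vehicle in all 22 alternatives, as did Ptgds, Ptges, Ptger3 and Slco2a1 for PMX-53 in diabetic mice. The interaction of Ptgds passed in 33 of 33. The count of prostaglandin genes with an interaction, 2, was 1 with library totals only, 1 with no filter and 1 without the 3 libraries with urothelium markers. Calls over all genes were then 1336 of 15808, 1019 of 30655 and 610 of 16050, against 1489 of 15808. On leaving out single libraries the count was 1 to 4, where 1022 to 2242 of all genes passed. It was 4 without diabetic vehicle replicate 4, where 2242 of 15955 passed. The cause was not tested.

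Sign changes were for values near 0. Ptgs1 with PMX-53 in diabetic mice was 0.021 with library totals only and 0.044 without the 3 libraries, and Ptgds with PMX-53 in non-diabetic mice was 0.049 with voom. On leaving out single libraries, Ptgds ran from -0.17 to 0.13 with PMX-53 in non-diabetic mice and from -0.11 to 0.20 with diabetes on PMX-53. With diabetes on PMX-53, Ptger4 ran from -0.17 to 0.076 and Hpgd from -0.022 to 0.17, and the interaction ran from -0.010 to 0.15 for Ptges and from -0.073 to 0.18 for Ptger4.

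With library totals only, the median log2 fold change of all genes was -0.09 with diabetes on vehicle, 0.12 with PMX-53 in diabetic mice and 0.12 for the interaction. Of all called genes 31.2% were then higher with diabetes on vehicle against 50.7%, 79.5% against 50.7% with PMX-53 in diabetic mice, 65.7% against 54.9% with diabetes on PMX-53 and 79.3% against 49.5% for the interaction. Calls over all genes moved by over 1.5 times for diabetes on PMX-53 (1587, with 2560 by voom and 871 by library totals) and for the interaction (1489, with 610 without the 3 libraries and 2242 without diabetic vehicle replicate 4). They did so for PMX-53 in diabetic mice too (4317, with 2779 without the 3 libraries). Same-numbered libraries showed little common deviation (mean correlations of -0.0148 to 0.0216, single pairs from -0.124 to 0.131). The main fit left them unpaired, although such values cannot exclude a pairing. The replicate block gave 7, 4, 0, 2 and 2 genes in the 5 comparisons and lost only Ptger1 with PMX-53 in diabetic mice. Of all 15808 tested genes it called 6221, 4136, 0, 1483 and 1344. Depth limits Ptgs2 (0 to 9 counts) most, then Ptgds outside the diabetic vehicle group.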
